A study of Mus musculus with 9 samples.

Results

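Complex I of the mitochondrial respiratory chain was followed through its nuclear genes, taken as every gene whose symbol begins with Nduf. They made up 52 of the 26358 genes measured by poly(A) RNA sequencing in mouse oocytes, and 50 of them passed the filter on low counts and were tested. The 3 groups of 3 libraries each were fresh oocytes, oocytes frozen on a cryotop (cryopreservation-1) and oocytes frozen in a straw (cryopreservation-2). A cryotop is a film strip that holds a minimal volume of solution and cools very fast. In cryopreservation-1 the solution held 15% EG (ethylene glycol), 15% DMSO (dimethyl sulphoxide) and sucrose at 0.5 M. In cryopreservation-2 it held 17.5% EG, trehalose at 1 M and PVA/Fe3O4/GO nanoparticles, so carrier, solutes and nanoparticles changed together. For the oocytes themselves, strain, age and maturation stage are not given in the labels used here. Nor do the labels say that replicates came from separate mice or separate pools of oocytes, so each p-value reflects the spread among these libraries alone, which may be technical.

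Complex I takes electrons from NADH, passes them along iron-sulphur clusters to ubiquinone, and uses the energy to pump protons across the inner mitochondrial membrane. Its peripheral arm reaches into the matrix and carries the NADH site and the iron-sulphur clusters, and its membrane arm carries the proton channels. Conserved core subunits, of which the hydrophobic ones are encoded by mitochondrial DNA, do the catalysis, accessory subunits surround and stabilise them, and assembly factors build the complex without staying in it. Oocytes hold very many mitochondria, which the egg passes on to the embryo, and draw much of their energy from oxidative phosphorylation.

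The libraries held 49337232 to 80877288 counts each, and the 3 of cryopreservation-2, with at most 51369012, were smaller than the other 6. Levels within a gene are given as CPM, its counts divided by a library size that was scaled by TMM (the trimmed mean of M-values). Where a library has 0 counts the level may still reach 3 counts, or 0.0372 to 0.0575 CPM, a limit for counting error alone. The label of oocytes was checked on 10 oocyte markers, among them Gdf9, Bmp15 and Zp3, which made up 0.912% to 1.65% of a library. Of 12 cumulus and granulosa markers 6 were in the table, and they took 0.00346% to 0.00756%, nearly all of it from Cyp19a1. In fresh libraries Has2 had 84, 18 and 85 counts, Fshr 103, 22 and 70, Ptgs2 71, 0 and 0, Inhba 0, 7 and 9 and Ptx3 0 in each. In the smaller cryopreservation-2 libraries Has2 had 0, 6 and 0 counts, Fshr 79, 16 and 75 and Ptgs2 0, 7 and 3. Inhba had 0, 0 and 29 there and Ptx3 0, 14 and 0. Ranges of the 3 groups overlapped for both lists, and edgeR called 0 of their tested genes in any comparison. In cryopreservation-2 against fresh, 4 of the 10 oocyte markers had an unadjusted edgeR p under 0.05, against 21.8% of all genes tested. They were Nobox, Ooep, Zp1 and Zp2, all higher in cryopreservation-2 relative to library size. DESeq2 called 3 and limma 2 of the 10. Of 4 cumulus markers tested, 1 was under 0.05, which was Has2, lower in cryopreservation-2. DESeq2 called 1 of the 4 and limma 0. Immune and blood markers made up 0.00146% or less and stromal and endothelial markers 0.0160% or less. The part of these markers in the results was not tested. Fresh replicate 3, cryopreservation-1 replicate 3 and cryopreservation-2 replicate 1 stood apart from the rest of their groups, with 9108, 8421 and 8667 genes at 0, where the other 6 libraries had 7744 or fewer. In bulk libraries such as these, fewer cells holding a transcript and less of it in each cell cannot be told apart.

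In fresh oocytes the Nduf genes spanned a wide range of levels and 1 gene led them by far. Levels are compared between genes as FPKM, the authors' value per transcript length and sequencing depth. The length behind each value is not given, which limits ranks between genes. Ndufa10, an accessory subunit of the nucleoside kinase family on the matrix side of the membrane arm (ENSMUSG00000026260, chr1:92439010-92473860, minus strand of GRCm38), stood at 105 ± 23.8 FPKM (SD, n = 3). Next came Ndufb6, a small subunit of the distal membrane arm, at 31.3 ± 2.48 FPKM, and the assembly factor Ndufaf4 at 27.3 ± 5.42 FPKM. The median of the 52 genes was 1.94 FPKM, with 10 at 5 FPKM or more and 21 under 1 FPKM. At the low end, Ndufb7, a subunit of the distal membrane arm, stood at 0.0677 ± 0.0229 FPKM. It had 20 to 36 counts in fresh on a GENCODE transcript of 623 bases. Ndufa12 had 0 to 32 counts on 1110 bases and yet 0.0993 FPKM, so FPKM did not follow counts and these lengths alone. Ndufa4l2, a paralogue of Ndufa4, had 11 counts in fresh replicate 1, 1 count in cryopreservation-1 replicate 3 and 0 elsewhere. Ndufaf1, an assembly factor of the membrane arm, had 8 counts in cryopreservation-1 replicate 2 and 0 in every other library. Both were too low to test.

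**Figure D1:**
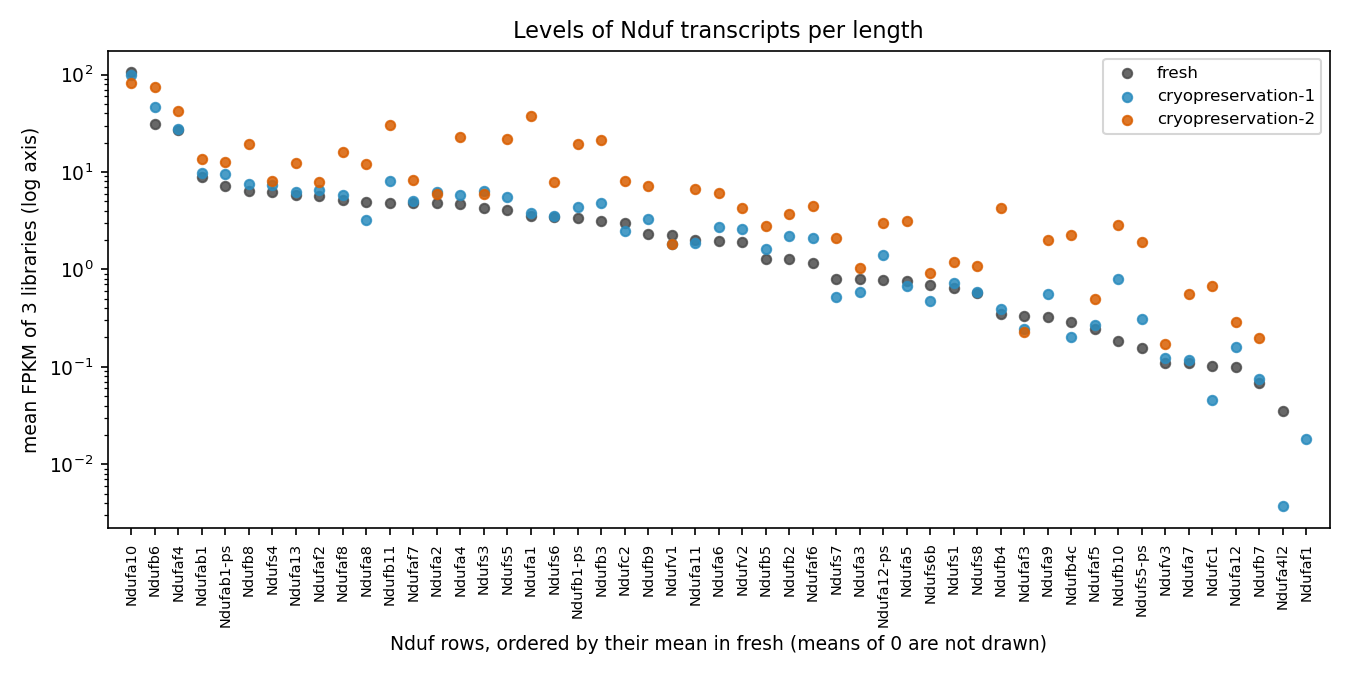
Mean FPKM of 3 libraries on a log axis for the Nduf genes, 1 of which is not shown, ordered from left to right by the mean in fresh oocytes; grey points are fresh, blue cryopreservation-1 and orange cryopreservation-2. Ndufa10 is at 105, 99.1 and 81.9 FPKM in the 3 groups, while many genes in the middle and right of the plot have their orange point above the others. Means of 0 are not drawn.

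After straw freezing with nanoparticles, transcripts of many complex I genes stood higher than in fresh oocytes, and none was called lower. Of the 50 tested, 12 rose, against 3.18% of all 17545 genes tested, and 0 fell, against 2.2%. Called here means an adjusted p under 0.05 in edgeR's quasi-likelihood test with Benjamini-Hochberg adjustment over all genes tested. The 12 were Ndufb4, Ndufb10, Ndufb11, Ndufb3, Ndufb8, Ndufb2 and Ndufb6 of the distal membrane arm, Ndufa1 and Ndufs5 of the proximal membrane arm, Ndufa6 of the peripheral arm, Ndufa4 and Ndufb1-ps. In 32 genes (64%) all cryopreservation-2 libraries lay above all fresh ones, against 15.1% of all genes, and in 47 (94%) the log2 fold change was positive, against 47.6%. The median log2 fold change was 1.33 over the 50 Nduf genes and -0.06 over all genes tested. The genes lower in cryopreservation-2 were Ndufa10, Ndufv1 and Ndufaf3, and none of these passed. EdgeR's 0 lower calls were matched by 0 with DESeq2 and with limma. An unadjusted edgeR p under 0.05 was reached by 28 of the 50 (56%), all of them higher in cryopreservation-2, against 21.8% of all genes in either direction. Leaving out 1 library took the 12 calls to 5 without fresh replicate 1 and 5 without fresh replicate 3. They were 6 without cryopreservation-2 replicate 2, 5 without cryopreservation-2 replicate 3 and 5 without the 3 libraries that stood apart. Over all genes those fits called 398, 231, 365, 282 and 194 in turn, against 944 in the reported fit. Ndufb4, Ndufs5, Ndufb1-ps, Ndufb11 and Ndufa1 passed under every alternative in which they were tested, 21 for Ndufb4 and 22 for each of the others.

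**Figure D2:**
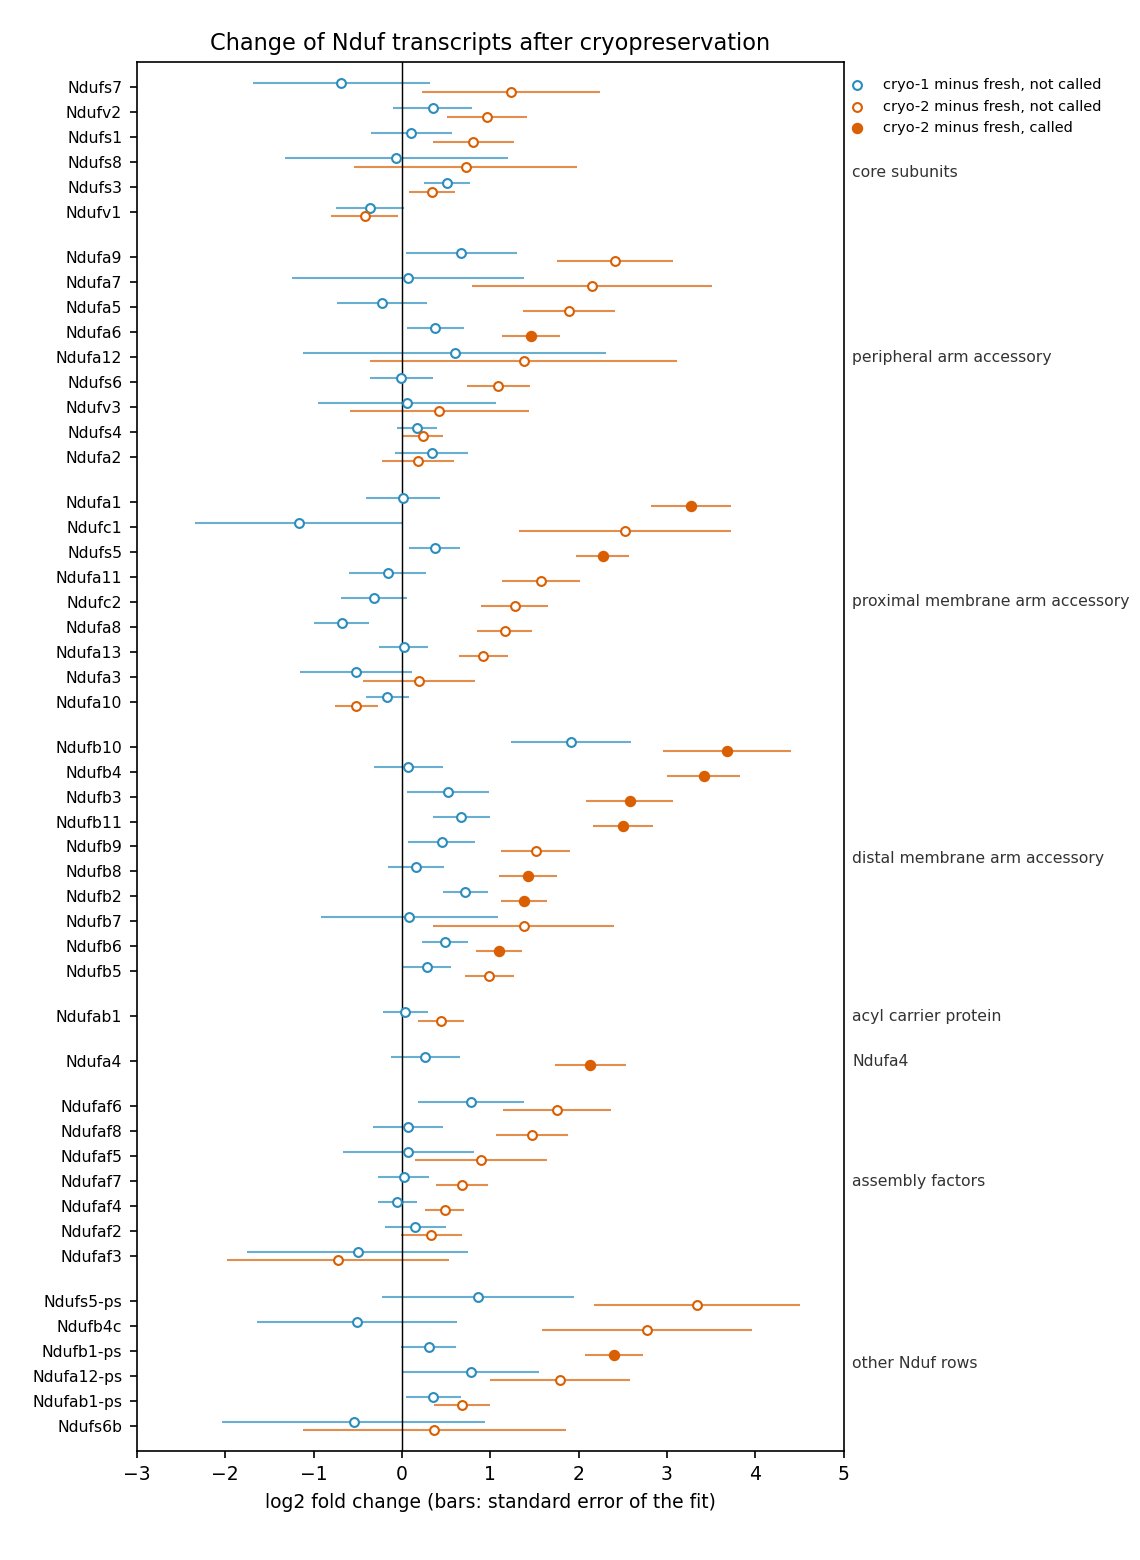
Log2 fold change of 49 of the 50 tested Nduf genes against fresh oocytes, by role in the complex; blue circles are cryopreservation-1, orange circles cryopreservation-2, filled where the gene was called, and bars are the standard error of the fit. Filled points lie only among the orange ones, between 1.10 (Ndufb6) and 3.68 (Ndufb10), and 7 of the 12 belong to the distal membrane arm.

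Promoters are shown for Ndufb4, Ndufs5 and Ndufb11, which, of the called genes with an entry in the RefSeq table used (GRCm38.p6), had the smallest p-values. Each is the stretch of 250 bases before the RefSeq start, on the minus strand and written 5′ to 3′, with motif matches in capitals. For Ndufb4 the stretch is chr16:37654369-37654618, with 3 matches to the NRF1 core, 1 to the ERR core and 1 to the GC box. For Ndufs5 it is chr4:123718187-123718436, with 1 NRF1 core, and for Ndufb11 chrX:20617620-20617869, with 1 YY1 core. Ndufb1-ps had no entry, and the RefSeq start of Ndufb4 lies inside the span given for the gene in the deposited table.
Ndufb4: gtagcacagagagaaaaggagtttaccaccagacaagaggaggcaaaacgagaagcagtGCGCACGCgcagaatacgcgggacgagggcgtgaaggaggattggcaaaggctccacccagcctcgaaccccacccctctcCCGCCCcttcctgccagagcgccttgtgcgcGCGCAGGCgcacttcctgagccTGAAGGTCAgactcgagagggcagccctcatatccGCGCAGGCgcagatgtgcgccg
Ndufs5: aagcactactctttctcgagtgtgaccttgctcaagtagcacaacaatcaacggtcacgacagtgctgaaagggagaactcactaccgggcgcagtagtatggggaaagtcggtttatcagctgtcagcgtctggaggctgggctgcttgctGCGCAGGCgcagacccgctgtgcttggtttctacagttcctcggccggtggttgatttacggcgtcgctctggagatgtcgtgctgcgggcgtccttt
Ndufb11: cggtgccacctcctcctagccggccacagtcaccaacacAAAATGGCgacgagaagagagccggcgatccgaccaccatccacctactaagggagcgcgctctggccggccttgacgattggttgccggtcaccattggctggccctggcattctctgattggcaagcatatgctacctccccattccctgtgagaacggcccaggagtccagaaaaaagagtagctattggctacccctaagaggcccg

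These motifs are those of factors known for driving genes of the respiratory chain, and were searched on both strands in windows from 250 bases before to 50 after the start. The letters were GCGCANGC for NRF1, CCGGAAG for the ETS family, AANATGGC for YY1, TNAAGGTCA for ERR and GGGCGG for the GC box. Of 42 windows of 40 Nduf genes, 28.6% held the NRF1 core, against 9.95% of 32851 promoters in the table, and 33.3% held the YY1 core, against 6.05%. The ETS core was in 14.3%, against 8.86%, the GC box in 52.4%, against 35.7%, and the ERR core in 2.38%, against 1.28%, in Ndufb4 alone. Median GC content was 59.3% in Nduf windows and 52.7% in all, and ETS and YY1 matches shared a base in 0 windows. Among the 11 called genes with an entry, 4 held the NRF1 core (Ndufa6, Ndufb10, Ndufb4 and Ndufs5) and 3 the YY1 core (Ndufb10, Ndufb11 and Ndufb8). A match is a string of letters and not a shown binding site, and 12 Nduf genes had no entry.

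The distal membrane arm, where the last proton channels sit, had the most calls. Of its 10 accessory subunits 7 rose in cryopreservation-2, against 3.18% of all genes tested. In each of the 10 all cryopreservation-2 libraries exceeded all fresh libraries, against 15.1% of all genes. The median log2 fold change was 1.47, with a range of 0.99 to 3.68. Whether the arms of the complex differ from each other was not tested.

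Ndufb4, an accessory subunit at the matrix face of this arm (ENSMUSG00000022820, chr16:37647170-37654453, minus strand), stood at 0.881, 1.08 and 0.522 CPM in fresh replicates 1, 2 and 3. It stood at 0.946, 0.748 and 0.919 CPM in cryopreservation-1 and at 7.32, 11.3 and 7.90 CPM in cryopreservation-2. The cryopreservation-2 values lay far above the other 6, which overlapped each other. The gene rose 10.7-fold over fresh, by 3.41 (SE 0.42) on the log2 scale (edgeR adjusted p = 0.00559). Of its transcript, 37.0% of all 50-base windows also occur in Ndufb4c, Gm16056 or Gm20519, so its level can include reads of these copies.

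Ndufb10, which lines the intermembrane-space side of the arm (ENSMUSG00000040048, chr17:24722060-24724478, minus strand), had 16, 42 and 6 counts in fresh oocytes. It reached 75, 93 and 74 counts in cryopreservation-1 and 170, 281 and 181 in the smaller cryopreservation-2 libraries. As CPM these were 0.199, 0.604 and 0.0846, then 0.972, 1.20 and 1.19, then 3.26, 5.13 and 3.02, so the 3 groups did not overlap at all. The log2 fold change in cryopreservation-2 was 3.68 (SE 0.72, edgeR adjusted p = 0.0219), the largest of the 50.

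Ndufb11, an X-linked subunit with a single membrane-spanning helix (ENSMUSG00000031059, chrX:20615326-20617619, minus strand), stood at 3.38, 6.47 and 5.97 CPM in fresh libraries. In cryopreservation-1 it was at 8.25, 11.2 and 5.79 CPM and in cryopreservation-2 at 26.1, 32.4 and 31.0 CPM. Fresh and cryopreservation-1 overlapped, and cryopreservation-2 stood above both. It rose by 2.50 (SE 0.34) on the log2 scale in cryopreservation-2 (adjusted p = 0.00611), and 17.5% of its 50-base windows are shared with Gm6444 or Rbm10.

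Ndufb3, a small membrane-anchored subunit (ENSMUSG00000026032, chr1:58586384-58595964, plus strand), had 1.99, 5.02 and 1.73 CPM in fresh, 5.29, 5.06 and 2.19 in cryopreservation-1 and 13.8, 18.4 and 19.9 in cryopreservation-2. The last group lay above all others, and the gene rose 5.97-fold over fresh (log2 2.58, SE 0.49, adjusted p = 0.0194). Ndufb8, a subunit often used as a protein marker of assembled complex I (ENSMUSG00000025204, chr19:44548572-44555440, minus strand), had 22.0, 33.8 and 17.4 CPM in fresh, 31.3, 33.6 and 17.1 in cryopreservation-1 and 64.5, 75.8 and 56.8 in cryopreservation-2. It rose 2.69-fold (log2 1.43, SE 0.32, adjusted p = 0.0347), with the first 2 groups at nearly the same values.

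Ndufb2, another small subunit of the arm (ENSMUSG00000002416, chr6:39592574-39603382, plus strand), stood at 8.30, 9.71 and 7.79 CPM in fresh, 14.0, 17.7 and 10.7 in cryopreservation-1 and 19.8, 21.8 and 25.6 in cryopreservation-2. Its groups formed 3 steps without overlap, and it rose 2.60-fold in cryopreservation-2 (log2 1.38, SE 0.26, adjusted p = 0.0190). Ndufb6 (ENSMUSG00000071014, chr4:40270591-40279421, minus strand) had 21.8, 28.8 and 23.5 CPM in fresh, 32.7, 47.3 and 24.1 in cryopreservation-1 and 53.0, 52.4 and 53.2 in cryopreservation-2. It rose 2.14-fold (log2 1.10, SE 0.26, adjusted p = 0.0399), the smallest rise among the calls, and shares 34.1% of its windows with the gene Smim27. Its call was the least firm of the 12, kept in 10 of 22 alternatives.

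The other members of the arm were Ndufb9, Ndufb5 and Ndufb7. Ndufb9, which binds the mitochondrial acyl carrier protein, missed the threshold, with 1.51 on the log2 scale (SE 0.39, adjusted p = 0.0507). Ndufb5 was at 0.99 (SE 0.28, adjusted p = 0.0692) and Ndufb7 at 1.38 (SE 1.02, adjusted p = 0.489), the latter on 20 to 36 counts in fresh and 32 to 75 in cryopreservation-2. Ndufb7 had 0.335, 0.288 and 0.508 CPM in fresh, 0.777, 0.387 and 0.0323 in cryopreservation-1 and 1.11, 0.584 and 1.25 in cryopreservation-2. Its lowest and highest values among the frozen libraries thus lie on both sides of the fresh range.

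**Figure D3:**
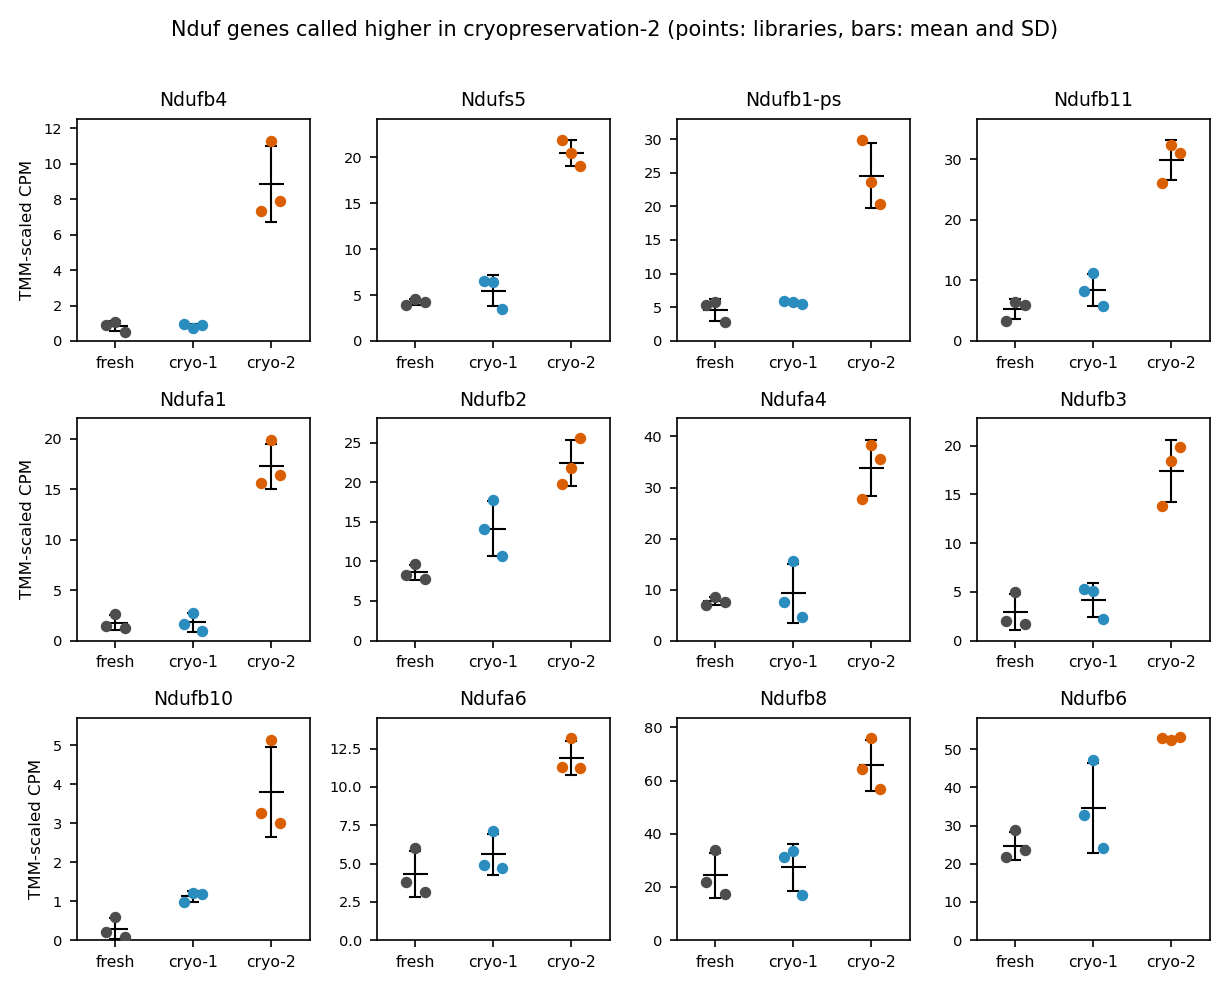
TMM-scaled CPM of the 12 Nduf genes that rose in cryopreservation-2 over fresh oocytes; each point is a library (fresh grey, cryopreservation-1 blue, cryopreservation-2 orange), and bars give the mean and SD of 3. In every panel the 3 orange points lie above the 6 others, and the grey and blue points overlap except in the panels of Ndufb2 and Ndufb10.

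In the proximal membrane arm, next to the ubiquinone site, 2 of 9 accessory subunits rose, against 3.18% of all genes, and 0 fell, against 2.2%. The median log2 fold change was 1.28, with a range of -0.52 to 3.27, and 7 of the 9 had no overlap upwards, against 15.1% of all genes.

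Ndufa1, a small X-linked subunit needed early in assembly (ENSMUSG00000016427, chrX:37187588-37191163, minus strand), stood at 1.49, 2.60 and 1.27 CPM in fresh libraries and at 1.67, 2.77 and 0.968 CPM in cryopreservation-1. In cryopreservation-2 it stood at 15.6, 19.8 and 16.4 CPM, clear of the other 6 libraries. The rise was 9.66-fold (log2 3.27, SE 0.45, adjusted p = 0.00624). By FPKM, Ndufa1 moved from rank 18 of the 52 genes in fresh to rank 4 in cryopreservation-2, where it reached 38.0 ± 5.97 FPKM (SD, n = 3). Its transcript shared 0 of its 50-base windows with transcripts of other genes.

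Ndufs5, an accessory subunit of the intermembrane-space side in spite of the letter it shares with core subunits (ENSMUSG00000028648, chr4:123712710-123718186, minus strand), had 3.95, 4.53 and 4.25 CPM in fresh libraries. It had 6.49, 6.42 and 3.53 CPM in cryopreservation-1 and 21.9, 20.5 and 19.1 CPM in cryopreservation-2. The last 3 values lay close together and above the rest. Ndufs5 rose 4.84-fold (log2 2.27, SE 0.30, adjusted p = 0.00611), and 31.1% of its windows are shared with Ndufs5-ps, which GENCODE lists as BC002163.

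Ndufa10 took the other direction without passing the test. Its values were 363, 563 and 340.4 CPM in fresh libraries, 365, 443 and 322 CPM in cryopreservation-1 and 238, 339 and 308 CPM in cryopreservation-2. Every cryopreservation-2 library lay below every fresh one, by a narrow margin of 339 against 340.4 CPM. Its log2 fold change was -0.52 (SE 0.24, edgeR adjusted p = 0.250). In the rest of the proximal arm, Ndufa8, of the intermembrane-space side, was at 1.16 (SE 0.31, adjusted p = 0.0577), Ndufa11 at 1.58 (adjusted p = 0.0667), Ndufc2 at 1.28 (adjusted p = 0.0791) and Ndufa13 at 0.92 (adjusted p = 0.0850). Ndufc1 was at 2.52 (SE 1.20, adjusted p = 0.256) on 11 to 16 counts in fresh, and Ndufa3 at 0.19 (SE 0.63).

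Among the 9 accessory subunits of the peripheral arm, 1 rose, against 3.18% of all genes, and 0 fell, against 2.2%. The median log2 fold change was 1.38. The call was Ndufa6, which anchors the acyl carrier protein to this arm (ENSMUSG00000022450, chr15:82350140-82354322, minus strand), at 3.80, 5.98 and 3.17 CPM in fresh, 4.94, 7.15 and 4.74 in cryopreservation-1 and 11.3, 13.2 and 11.2 in cryopreservation-2. It rose 2.76-fold (log2 1.46, SE 0.33, adjusted p = 0.0325), and the call held in 12 of 21 alternatives. Ndufa9, near the ubiquinone site, was at 2.41 (SE 0.66, adjusted p = 0.0620) and Ndufa5 at 1.89 (SE 0.52, adjusted p = 0.0635), both without overlap between the groups. Ndufs4, whose loss in mice is a model of Leigh syndrome, was at 0.24 (SE 0.23, adjusted p = 0.605), with 18.5, 24.9 and 16.8 CPM in fresh and 24.3, 23.7 and 23.2 in cryopreservation-2. Ndufs6, Ndufa2, Ndufa7, Ndufa12 and Ndufv3 had log2 fold changes from 0.18 to 2.15 and adjusted p of 0.107 or more.

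Of the nuclear core subunits 6 are described here, and edgeR called 0 of them in cryopreservation-2 against fresh. Their median log2 fold change was 0.77, with a range of -0.42 to 1.23. At an unadjusted edgeR p under 0.05 stood 0 of the 6, against 21.8% of all genes in either direction, and DESeq2 and limma called 0. Ndufs7, which holds the last iron-sulphur cluster before ubiquinone, varied widely, with 1.90, 2.96 and 0.212 CPM in fresh, 0.739, 2.31 and 0.0968 in cryopreservation-1 and 3.14, 4.18 and 4.60 in cryopreservation-2. Of these 6 it was the 1 core subunit whose fresh and cryopreservation-2 libraries did not overlap (log2 1.23, SE 1.01, adjusted p = 0.541).

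Ndufv1, the subunit that binds NADH and the flavin, had 9.70, 8.16 and 3.44 CPM in fresh, 4.64, 6.64 and 5.35 in cryopreservation-1 and 5.31, 5.42 and 5.17 in cryopreservation-2. The frozen groups lay within the fresh range (log2 -0.42 in cryopreservation-2, SE 0.38, adjusted p = 0.592). Its partner Ndufv2 had 3.77, 8.49 and 2.76 CPM in fresh, 7.52, 6.73 and 4.87 in cryopreservation-1 and 5.92, 10.9 and 12.5 in cryopreservation-2 (log2 0.96, SE 0.45, adjusted p = 0.252). Both comparisons of Ndufv2 with fresh overlapped.

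Ndufs1, the largest subunit and carrier of several iron-sulphur clusters, had 7.42, 3.52 and 7.59 CPM in fresh, 5.18, 5.56 and 9.24 in cryopreservation-1 and 17.0, 9.85 and 5.63 in cryopreservation-2 (log2 0.81, SE 0.46, adjusted p = 0.345). Ndufs3, of the module that docks ubiquinone, had 11.7, 13.5 and 8.14 CPM in fresh, 16.2, 17.8 and 13.4 in cryopreservation-1 and 12.8, 14.1 and 15.3 in cryopreservation-2. Its log2 fold change of 0.34 (SE 0.26, adjusted p = 0.509) turned to -0.00512 with offsets for GC content and length, and 39.7% of its windows are shared with other genes. Ndufs8, another iron-sulphur protein, had 0.223, 1.64 and 0.889 CPM in fresh, 1.72, 0.903 and 0 in cryopreservation-1 and 0.996, 1.62 and 1.92 in cryopreservation-2, a spread too wide to place the groups (log2 0.72, SE 1.27, adjusted p = 0.810).

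**Figure D4:**
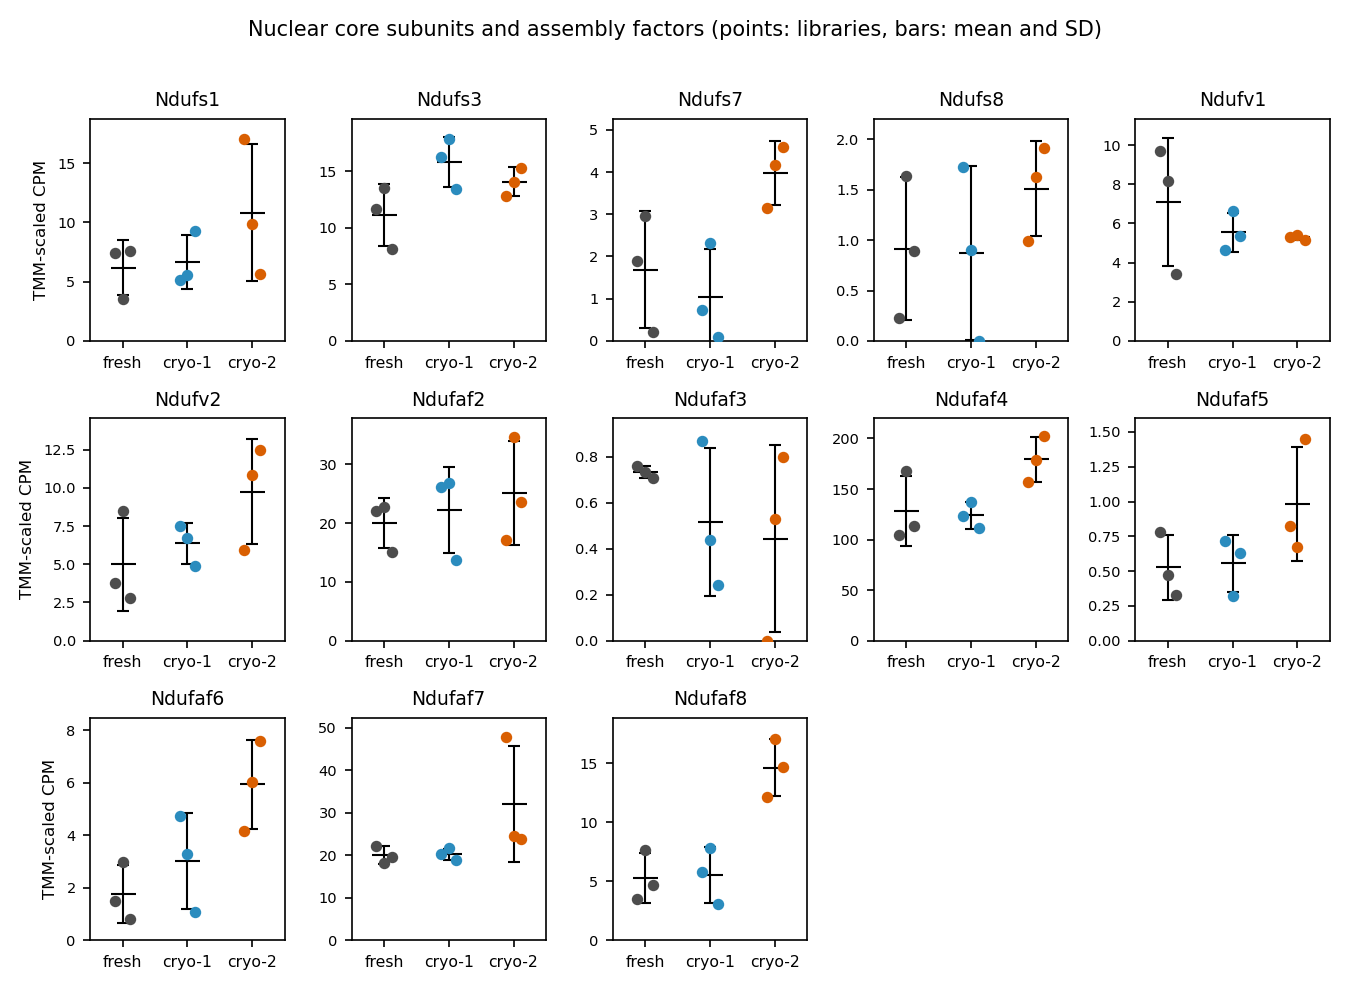
TMM-scaled CPM of 6 nuclear core subunits and 7 tested assembly factors, drawn as in the plot of called genes, with library points and bars for mean and SD of 3. Orange points overlap the grey ones in most panels and clear them for Ndufs7, Ndufaf6, Ndufaf7 and Ndufaf8.

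Of the 7 assembly factors tested, edgeR called 0 in cryopreservation-2 against fresh, and their median log2 fold change was 0.68. At an unadjusted edgeR p under 0.05 stood 3, all higher, against 21.8% of all genes in either direction, and DESeq2 and limma called 2 each. Ndufaf8, which stabilises Ndufaf5, had 3.50, 7.64 and 4.68 CPM in fresh, 5.74, 7.78 and 3.06 in cryopreservation-1 and 12.1, 17.0 and 14.7 in cryopreservation-2. Its cryopreservation-2 libraries cleared the others (log2 1.47, SE 0.41, adjusted p = 0.0642). Ndufaf6, which acts on the membrane arm early in assembly, had 1.50, 2.96 and 0.818 CPM in fresh, 4.72, 3.29 and 1.08 in cryopreservation-1 and 4.18, 6.04 and 7.58 in cryopreservation-2 (log2 1.75, SE 0.61, adjusted p = 0.125). The last group lay above fresh and overlapped cryopreservation-1. Ndufaf7, a methyltransferase that acts on a core subunit, had 22.3, 18.1 and 19.5 CPM in fresh, 20.2, 21.6 and 19.0 in cryopreservation-1 and 47.8, 24.5 and 23.7 in cryopreservation-2. The first of these last values stood far from the other 2 (log2 0.68, SE 0.29, adjusted p = 0.206).

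The remaining assembly factors overlapped between fresh and cryopreservation-2. Ndufaf4, which works on the peripheral arm, had 104, 168 and 113 CPM in fresh, 123, 137 and 111 in cryopreservation-1 and 157, 179 and 202 in cryopreservation-2 (log2 0.49, SE 0.22, adjusted p = 0.233). Its partner Ndufaf3 had 0.757, 0.734 and 0.705 CPM in fresh, 0.868, 0.439 and 0.242 in cryopreservation-1 and 0, 0.529 and 0.800 in cryopreservation-2 (log2 -0.72, SE 1.26, adjusted p = 0.808). Ndufaf3 thus had the lowest of the 50 fold changes, on a low level with a wide error.

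Ndufaf2, a chaperone of late assembly, had 22.1, 22.7 and 15.1 CPM in fresh, 26.1, 26.7 and 13.7 in cryopreservation-1 and 17.1, 34.7 and 23.6 in cryopreservation-2. Its log2 fold change of 0.33 (SE 0.34, adjusted p = 0.649) became -0.12 with offsets for GC content and length. Ndufaf5, which modifies Ndufs7, had 0.782, 0.475 and 0.324 CPM in fresh, 0.713, 0.322 and 0.629 in cryopreservation-1 and 0.824, 0.675 and 1.45 in cryopreservation-2 (log2 0.90, SE 0.75, adjusted p = 0.551).

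Ndufab1 and Ndufa4 stand somewhat outside the complex. Ndufab1, the mitochondrial acyl carrier protein, which also serves fatty acid synthesis, had 70.5, 95.6 and 56.8 CPM in fresh, 88.2, 85.4 and 55.5 in cryopreservation-1 and 85.6, 102 and 116 in cryopreservation-2, with overlap throughout (log2 0.44, SE 0.26, adjusted p = 0.359). Ndufa4, first described in complex I and now placed in cytochrome c oxidase (ENSMUSG00000029632, chr6:11900292-11907483, minus strand), had 6.95, 8.53 and 7.64 CPM in fresh, 7.49, 15.6 and 4.61 in cryopreservation-1 and 27.7, 38.2 and 35.5 in cryopreservation-2. It rose 4.39-fold (log2 2.13, SE 0.40, adjusted p = 0.0190), with fresh and cryopreservation-1 overlapping.

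The last 6 Nduf genes carry the names of copies. Ndufb1-ps (ENSMUSG00000113902, chr12:101968090-101977068, minus strand) is the only one named for Ndufb1 in the table, which types its transcripts as protein_coding and processed_transcript, while GENCODE types the gene as a long noncoding RNA of a bidirectional promoter. It stood at 5.36, 5.83 and 2.76 CPM in fresh, 5.90, 5.83 and 5.48 in cryopreservation-1 and 29.8, 23.6 and 20.3 in cryopreservation-2, where it was clear of the rest. It rose 5.28-fold (log2 2.40, SE 0.33, adjusted p = 0.00611), and 12.2% of its windows are shared with its neighbour Cpsf2. Ndufs5-ps and Ndufb4c, processed pseudogenes of genes that rose, had log2 fold changes of 3.34 (SE 1.17, adjusted p = 0.125) and 2.78 (SE 1.19, adjusted p = 0.206). Of their windows, 72.6% and 100% also occur in other genes, so reads of Ndufs5 and Ndufb4 cannot be kept apart from theirs. Without the 6 genes with such names, 11 of 44 genes were called higher, against 3.18% of all genes, and the median was 1.25. Whether Ndufb1-ps is a copy was not tested, and it was not counted in the distal membrane arm.

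The summed level of the Nduf genes was higher in every cryopreservation-2 library than in any other, and Ndufa10 held a smaller part of it. Their summed level was 268, 335 and 239 FPKM in fresh libraries, 314, 375 and 249.5 in cryopreservation-1 and 483, 600.1 and 593 in cryopreservation-2. Fresh and cryopreservation-1 overlapped. Without Ndufa10 the means were 175 ± 25.7, 214 ± 48.3 and 477 ± 48.1 FPKM (SD, n = 3 each). The share of Ndufa10 in all Nduf counts was 48.6% ± 1.85 in fresh libraries, 44.0% ± 1.86 in those of cryopreservation-1 and 25.7% ± 2.38 in those of cryopreservation-2 (SD, n = 3 each). Its mean FPKM was 3.36 times that of the next highest gene, Ndufb6, in fresh, 2.15 times in cryopreservation-1 and 1.11 times in cryopreservation-2. These are shares of a library, and the amount of RNA per oocyte was not measured. A mean of 5 FPKM or more was reached by 10 genes in fresh oocytes, by 16 after cryopreservation-1 and by 25 after cryopreservation-2.

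**Figure D5:**
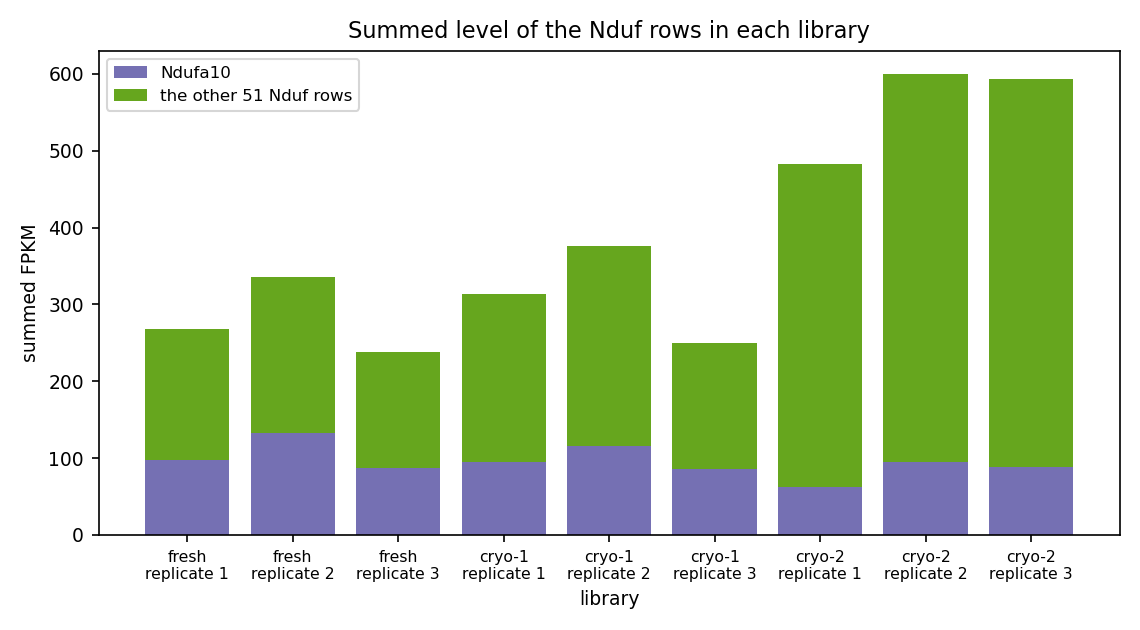
Summed FPKM of the 52 Nduf genes in each library, with Ndufa10 in purple and all others stacked in green. The purple part is between 61.9 and 132 FPKM in all libraries, while the green part is 152 to 260 FPKM in fresh and cryopreservation-1 libraries and 421 to 505 FPKM in cryopreservation-2 libraries.

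Nduf genes also tended to be high or low in the same libraries of a group, less clearly so in cryopreservation-2, where their share was nearer that of all genes. Fresh replicate 2 had the highest CPM of its group in 38 of the 50 genes (76%), against 37.9% of all genes tested, and fresh replicate 3 had the lowest in 30 (60%), against 36.5%. In cryopreservation-1, replicate 3 was lowest in 38 genes (76%), against 41.1%, and in cryopreservation-2 replicate 1 was lowest in 28 (56%), against 46.4%. Fresh replicate 3, cryopreservation-1 replicate 3 and cryopreservation-2 replicate 1 are the libraries that stood apart by their genes at 0. Values of different Nduf genes thus share their libraries and are not independent of each other.

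Cryotop freezing was compared with fresh oocytes in the same fit, and no Nduf gene was called. EdgeR called 0 of 50, as it called 0 (0%) of all 17545 genes, and 2 Nduf genes (4%) had an unadjusted p under 0.05, against 4.72% of all genes. DESeq2 and limma likewise called 0 Nduf genes, where DESeq2 called 67 of all genes and limma 0. The log2 fold change was positive in 35 genes (70%), against 52.1% of all genes, and the median was 0.08, against 0.02. The count of positive genes was 27 with offsets for GC content and length, 26 with length offsets alone and 26 without cryopreservation-1 replicate 2. The median lay between 0.0029, without cryopreservation-1 replicate 2, and 0.35, without fresh replicate 2. The 2 genes under 0.05 were Ndufb10 and Ndufb2, whose values are given above and whose cryopreservation-1 libraries all exceeded the fresh ones. Ndufb10 was at 1.92 on the log2 scale (SE 0.68, edgeR adjusted p = 1) and Ndufb2 at 0.72 (SE 0.26, edgeR adjusted p = 1). Ndufb11 followed at 0.67 (SE 0.33). In this fit the 10 distal membrane arm subunits all had a positive log2 fold change (median 0.47), and 6 of the 9 of the proximal arm had a negative one, with a median of -0.16; these directions were not checked under the alternatives.

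On the negative side, the smallest unadjusted p-values were those of Ndufa8, Ndufc1 and Ndufv1. Ndufa8 (ENSMUSG00000026895, chr2:36036326-36049406, minus strand) had 4.0, 6.07 and 5.15 CPM in fresh and 3.03, 3.89 and 2.55 CPM in cryopreservation-1, without overlap (log2 -0.68, SE 0.31, edgeR adjusted p = 1). Ndufc1, a small subunit of the proximal arm, had 11, 16 and 15 counts in fresh and 0, 11 and 7 in cryopreservation-1, and its cryopreservation-2 counts were 49, 68 and 70 (log2 -1.17, SE 1.17, adjusted p = 1).

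Between the freezing methods, 7 of the 50 genes were higher in cryopreservation-2 than in cryopreservation-1, against 1.5% of all genes tested, and 0 were lower, against 1.25%. All libraries were higher in 30 genes (60%), against 13.8% of all genes, and 45 (90%) had a positive log2 fold change, against 46.8%. The median was 1.03 over Nduf genes and -0.07 over all genes. Ndufb4 rose by 3.34 (SE 0.42, edgeR adjusted p = 0.00864), Ndufa1 by 3.26 (SE 0.45, adjusted p = 0.0112), Ndufb1-ps by 2.10 (SE 0.32, adjusted p = 0.0138) and Ndufs5 by 1.90 (SE 0.30, adjusted p = 0.0138) on the log2 scale. Ndufa4 rose by 1.87 (SE 0.40, adjusted p = 0.0385) and Ndufb11 by 1.83 (SE 0.33, adjusted p = 0.0234).

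Ndufa8 was the 1 gene called here and not against fresh, with 11.4, 9.23 and 13.5 CPM in cryopreservation-2 and its cryopreservation-1 values below those of fresh oocytes. Its log2 fold change between the methods was 1.84 (SE 0.32, edgeR adjusted p = 0.0209). Because both comparisons of cryopreservation-2 use the same libraries, their calls are not independent of each other. EdgeR's 0 lower calls stood beside 0 lower calls with DESeq2 and limma. An unadjusted edgeR p under 0.05 was reached by 27 Nduf genes (54%), all of them higher in cryopreservation-2, against 18.9% of all genes in either direction. On the negative side, the smallest unadjusted p-values were those of Ndufa10, at -0.35 (SE 0.24, edgeR adjusted p = 0.496), Ndufs3, at -0.17 (SE 0.26, adjusted p = 0.823), and Ndufa2, at -0.16 (SE 0.41, adjusted p = 0.908). Ndufa2, of the peripheral arm, had 3.92, 3.54 and 2.30 CPM in fresh, 5.58, 4.49 and 2.26 in cryopreservation-1 and 3.26, 3.56 and 4.25 in cryopreservation-2. All 3 genes overlapped between the freezing methods. The 7 calls went to 0 without cryopreservation-1 replicate 1 (19 genes at an unadjusted p under 0.05) and 0 without cryopreservation-1 replicate 3 (18 genes). They were 4 without cryopreservation-1 replicate 2, 4 without cryopreservation-2 replicate 3 and 0 without the 3 libraries that stood apart (24 genes). Over all genes those fits called 15, 16, 103, 96 and 0 in turn, against 483 in the reported fit.

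Nduf transcripts are short, and short transcripts as a class stood higher in cryopreservation-2. Of the 50 genes, 36 fell in the shortest of 4 equal classes of transcript length (38 to 1398 bases, 4383 genes), where the median log2 fold change of cryopreservation-2 against fresh was 0.37 and 5.38% of genes were called higher. In the longest class the median was -0.22 and 1.42% were called higher. Over the 50 Nduf genes, Spearman's rho between length and log2 fold change was -0.35, and over 17520 genes it was -0.22, across genes that share the same libraries. With offsets for length alone the Nduf median was 0.94 instead of 1.33 and 12 genes were called. With offsets for GC content and length it was 1.03, and 12 genes were called. The smaller depth of the cryopreservation-2 libraries also moved with the groups. After thinning every library to the smallest total, 14 Nduf genes were called, with a median of 1.34. Of all genes, 1010 were called with length offsets, 1420 with those for GC content and length and 987 after thinning, against 944 in the reported fit. The part of length and depth in these results beyond those values was not tested.

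Complex I genes with other names were taken from lists of their own. The 7 subunits encoded by mitochondrial DNA, which form the proton-pumping core of the membrane arm, had 0 calls by edgeR, DESeq2 or limma in any comparison and a median log2 fold change of 0.09 in cryopreservation-2 against fresh, from -0.51 to 0.27. In cryopreservation-1 all 7 had a negative value, with a median of -0.57, where 52.1% of all genes had a positive one. These 7 share their libraries and are not independent of each other. The part of the selection on oligo(dT) in their levels was not tested. At an unadjusted edgeR p under 0.05 stood 1 of them in cryopreservation-1 against fresh, 0 in cryopreservation-2 against fresh and 2 between the methods. The shares of all genes were 4.72%, 21.8% and 18.9%. Of 10 other assembly factors of complex I, such as Ecsit, Timmdc1 and Foxred1, edgeR called 0, with a median of 0.42 in cryopreservation-2 against fresh. There 3 had an unadjusted edgeR p under 0.05, against 21.8% of all genes. Nubpl (log2 1.54, SE 0.40) and Tmem70 (1.16, SE 0.33) were higher, and Acad9 (-1.11, SE 0.32) was lower. DESeq2 called 3 of the list and limma 2.

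Nuclear subunits of complexes II to V, which carry electrons on to oxygen and make ATP, were counted in the same way. Of 48 tested, 18 were called higher after straw freezing than in fresh oocytes, against 3.18% of all genes tested, and 0 lower, against 2.2%. Their median log2 fold change was 1.48. The list was taken by symbol, and the 48 include Cox5b-ps, Atp5pb-ps, Atp5l2-ps and Atp5c1-ps, which carry the names of copies and were not called. Against cryopreservation-1, 7 were called higher, where 1.5% of all genes were. The smallest p-values were those of the cytochrome c oxidase subunits Cox5a (1.26, SE 0.18, adjusted p = 0.00842), Cox4i1 (2.21, SE 0.34, adjusted p = 0.00950) and Cox6c (1.78, SE 0.29, adjusted p = 0.0109) and of Uqcr10 of the bc1 complex (2.02, SE 0.34, adjusted p = 0.0120). No difference between these lists and the Nduf genes was tested.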

How the data were processed

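Messenger RNA of mouse oocytes was selected on oligo(dT) and made into strand-marked (dUTP) libraries, per the labels' protocols. The submitters' processing notes name cutadapt 1.9, HISAT2 2.0.4, StringTie 1.3.4d and GRCm38; how reads were counted, with which strand setting and which annotation, is not given in the sources used here. For each gene and library the deposited table gives a raw read count and an FPKM value, as made by the authors. Counts were tested with edgeR 4.0.16 in R 4.3.3 (filterByExpr at min.count 10 and min.total.count 15, TMM scaling, quasi-likelihood F-test, Benjamini-Hochberg adjustment over all 17545 genes tested, threshold 0.05), in 1 fit of all 9 libraries, and the code was tested on simulated data. The common biological coefficient of variation was 0.662. Libraries held 49337232 to 80877288 counts, and no pair of libraries within a group was a duplicate. Pairs between groups were not checked for this. FPKM served for levels between genes and for limma 3.58.1 on log2(FPKM + 1) or log2(FPKM + 0.1), and DESeq2 1.42.0 was a further alternative. Transcript length, GC content and shared windows of 50 bases came from GENCODE transcripts (the longest protein-coding one, or else the longest), and promoters from RefSeq (GRCm38.p6).

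The genes and lists were chosen with earlier results of these data known. Values in every library are given for called genes (at most 12 in each direction per comparison), for the 3 with the smallest p in each direction where none was called, for nuclear core subunits and assembly factors, and for the 3 highest and 3 lowest in fresh oocytes; from other lists, at most 4 called genes by p. Other Nduf genes given with values, and Nubpl, Tmem70 and Acad9, were chosen after their values were seen. Between fresh and cryopreservation-1, libraries with the same replicate number deviated together from their group means (Pearson's r over 8091 genes of 0.272, 0.404 and 0.473). Unlike numbers of these groups gave -0.368 to 0.0893. Some unlike-numbered libraries of other groups also deviated together, such as cryopreservation-1 replicate 3 and cryopreservation-2 replicate 1 (0.463) and fresh replicate 3 and cryopreservation-2 replicate 1 (0.352). The labels state no pairing. The reported fit used none, and the replicate number was a block only in alternatives. Alternatives changed the scaling, test, pseudocount, filter, libraries, depth, replicate block and offsets for GC content and length. The values of 1 core subunit are not reported here, though it remains in the counts and medians over all Nduf genes.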

Additional observations from a re-analysis of the deposited data

How the results depend on the processing

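Over 22 alternatives, 0 Nduf genes were called lower in any comparison, and 0 were called in cryopreservation-1 against fresh. The calls in cryopreservation-2 against fresh, 12 in the reported fit, were 27 with DESeq2 and 29 and 26 with limma on log2(FPKM + 1) and log2(FPKM + 0.1). They were 5 without the 3 libraries that stood apart, and 5 to 12 when each replicate was left out in turn. Over all genes, 944 in the reported fit, they were 2730, 1792 and 1654 with these tools and 194 without those 3 libraries. Against cryopreservation-1, 7 Nduf genes in the reported fit, they were 24 with DESeq2, 23 and 19 with limma and 11 with offsets for GC content and length. They were 0 without the 3 libraries that stood apart (24 genes at an unadjusted edgeR p under 0.05), and 0 to 7 when each replicate was left out. Over all genes, 483 in the reported fit, the calls were 2137, 1175 and 1010 with these tools, 860 with the offsets and 0 without the 3 libraries. The cause of these shifts was not tested, and the fits that left out libraries also had fewer of them. The median log2 fold change of the Nduf genes ranged from 0.94 to 1.46 against fresh and from 0.74 to 1.32 against cryopreservation-1. Against fresh, Ndufs3 turned to -0.00512, -0.00549 and -0.000407 and Ndufaf2 to -0.122, -0.134 and -0.0915 with offsets for GC content and length, with these and the replicate block, and with length offsets; neither was called. Same-numbered libraries of cryopreservation-2 and of the other groups correlated from -0.449 to 0.166. Such correlations cannot show whether libraries shared an animal, pool or day. With the replicate block, 11 Nduf genes were called against fresh, 8 against cryopreservation-1 and, as without it, 0 of all genes in cryopreservation-1 against fresh, and calls over all genes in cryopreservation-2 against fresh went from 944 to 500.0. Genes with few counts, such as Ndufs8, Ndufaf3 and Ndufc1, have standard errors above 1 on the log2 scale, which limits what can be seen in them.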
